A study of Mus musculus with 18 samples.

Results

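The TET enzymes *Tet1*, *Tet2* and *Tet3*, the glycosylase gene *Tdg* and the CXXC zinc finger genes *Cxxc4* and *Cxxc5* were followed in the nascent RNA of WT and *Tet2*-KO mouse embryonic stem (mES) cells. These 6 genes were chosen by symbol, from the Ensembl identifiers of the count tables looked up in GENCODE M21, and all 6 of them were found among 54446 genes. Nascent RNA was labelled with 1 mM 5-ethynyl uridine (EU), a uridine analogue that growing transcripts take up, for 10, 20 or 40 min, and was then biotinylated, captured and sequenced. WT and *Tet2*-KO (*Tet2*-/-) cells were compared at each of the 3 EU times, with 3 libraries per group and 18 in all. Both lines were grown in serum with LIF, the GSK3 inhibitor CHIR99021 and the MEK inhibitor PD0325901. The methods name 1 WT line and 1 *Tet2*-KO line, so replicates were dishes of the same line. The p-values are set against the spread between dishes, and a difference between the lines cannot be told apart from the loss of *Tet2*. How the knockout allele was built is not given in the sources used here.

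TET proteins are dioxygenases that use iron and 2-oxoglutarate to oxidise 5-methylcytosine (m5C) to 5-hydroxymethylcytosine and then to formyl and carboxyl forms. TDG cuts the formyl and carboxyl forms out of DNA, and base excision repair puts an unmethylated cytosine in their place. TET1 and TET3 carry their own CXXC zinc finger, which binds CpG-rich DNA, whereas TET2 has none. In the ancestor of the family that finger belonged to the TET2 protein, and it is now encoded by *Cxxc4*, a separate gene further along the same chromosome. CXXC4 and its relative CXXC5 bind unmethylated CpG DNA and interact with TET2. In mES cells *Tet1* and *Tet2* are the TET genes in main use, while *Tet3* is best known from the oocyte and the zygote.

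Promoters of *Tet2* and *Tdg* are shown because at every EU time all libraries labelled *Tet2*-KO lay below all WT libraries in their share of gene reads, which held for no other member. Each is the stretch of 250 bases before the RefSeq start site (GRCm38.p6, as mm10), read on the gene's own strand, with every CG dinucleotide, the base pair step that CXXC fingers bind, in capitals. CG reads the same on both strands.
*Tet2* promoter, chr3:133544391-133544640, minus strand: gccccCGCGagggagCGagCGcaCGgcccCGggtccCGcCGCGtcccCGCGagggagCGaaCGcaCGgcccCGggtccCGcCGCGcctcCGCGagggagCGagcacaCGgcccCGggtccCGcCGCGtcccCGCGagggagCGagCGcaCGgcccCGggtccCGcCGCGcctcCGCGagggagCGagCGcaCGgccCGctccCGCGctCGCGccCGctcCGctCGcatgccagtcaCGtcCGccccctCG
*Tdg* promoter, chr10:82629588-82629837, plus strand: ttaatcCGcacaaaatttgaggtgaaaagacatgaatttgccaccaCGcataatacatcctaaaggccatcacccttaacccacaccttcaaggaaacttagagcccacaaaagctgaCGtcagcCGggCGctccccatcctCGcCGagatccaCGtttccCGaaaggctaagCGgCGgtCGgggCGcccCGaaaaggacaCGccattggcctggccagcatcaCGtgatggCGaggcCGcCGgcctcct
The *Tet2* window held 51 CG dinucleotides with a GC content of 83.6%, and 0.0670% of the 32851 RefSeq promoter windows held as many or more. It lies within the gene as GENCODE M21 draws it, which starts 749 bases upstream of the RefSeq start site. The *Tdg* window held 19, which 19.7% of promoters reached, against a median of 6 over all of them. The windows of *Cxxc4*, *Tet3* and *Tet1* held 20, 17 and 15, and that of *Cxxc5* is not given here. The letters say nothing about methylation, which was not measured in these libraries.

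All coordinates are on mm10 (GRCm38). *Tet1* lies on chromosome 10 (62804570 to 62908996, minus strand), *Tet2* on chromosome 3 (133463679 to 133545139, minus strand), *Tet3* on chromosome 6 (83362373 to 83459084, minus strand) and *Tdg* on chromosome 10 (82629828 to 82650799, plus strand). *Cxxc4* lies on chromosome 3 (134236484 to 134262161, plus strand), 691344 bases beyond the annotated start of *Tet2*, and *Cxxc5* on chromosome 18 (35829397 to 35861688, plus strand).

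Levels were taken in 2 ways. The first is the reads of a gene per 1000 reads on the ERCC transcripts, a mix of foreign RNA whose amount was set by the total RNA of the sample. The second is the reads of a gene per 1000000 reads on all genes (RPM), called its share. The spike-in level follows the amount of labelled RNA per total RNA, and neither scale tells fewer cells from less RNA per cell. An error in the ERCC reads of a library shifts the levels per ERCC read of all its genes together. The test used below pools its estimate of spread over genes, so p-values per ERCC read can be too small. Libraries held 17931614 to 23069143 gene reads and 44162 to 512186 ERCC reads, and gene reads per ERCC read ranged from 42.8 to 429. Reads came from whole gene bodies on 1 strand, because 12 of 6457 genes that lie inside another gene on the same strand had any read (0.186%), against 4651 of 6276 inside a gene on the opposite strand only (74.1%). The stem cell marker *Sox2*, which lies inside *Sox2ot* on the same strand, accordingly had 0 reads in all libraries. The other 9 stem cell markers looked up were all tested, and their summed share was 2231 to 2404 RPM in WT and 1583 to 1795 in *Tet2*-KO-labelled libraries, with 3 of them called higher in averaged share and 6 lower. *Zfp42*, from a mean of 539 RPM to 113, showed the largest difference (log2 difference in share -2.25, SE 0.02), while *Utf1* (0.25, SE 0.10), *Pou5f1* (0.16, SE 0.03) and *Fgf4* (0.13, SE 0.02) were higher. Markers of the 2-cell-like state summed to 18.3 to 30.7 RPM in WT and 2.37 to 5.33 in *Tet2*-KO-labelled libraries, and 6 of 6 that were tested were lower. Of all genes tested, 24.6% were called higher and 32% lower in averaged share. Feeder fibroblast markers summed to 5.50 to 21.4 and 7.02 to 15.0, primitive endoderm markers to 26.9 to 45.9 and 33.3 to 42.3, and trophectoderm markers to 26.0 to 31.5 and 28.5 to 33.9. Their part in the results below was not tested.

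*Tet2*, the gene named as knocked out, was read in every library. In WT its counts were 13132, 13343 and 13117 at 10 min, 13419, 13296 and 14725 at 20 min, and 17092, 15032 and 15122 at 40 min of EU. In *Tet2*-KO-labelled libraries they were 11911, 9730 and 10200 at 10 min, 11055, 11295 and 11602 at 20 min, and 12071, 13011 and 11395 at 40 min. Reads over the locus were not lost, and since the counts are summed over the gene, they cannot show whether an exon is missing. The genotypes are those of the labels. The share of *Tet2* was 596 ± 5.71 RPM (SD, n = 3), 690 ± 10.5 and 737 ± 3.42 at the 3 EU times in WT and 535 ± 5.12, 589 ± 6.51 and 639 ± 4.27 in *Tet2*-KO-labelled libraries. Every *Tet2*-KO-labelled library lay below every WT library of the same EU time. Averaged over the times the share fell by 0.20 on the log2 scale (SE 0.01, 0.87-fold, adjusted p = 1.42e-16, quasi-likelihood test in edgeR, Benjamini-Hochberg adjusted over the 19910 genes tested, as for all adjusted p-values below). Per ERCC read the direction was the opposite. *Tet2* was higher by 0.54 on the log2 scale (SE 0.05, 1.45-fold, adjusted p = 2.42e-24), while the median gene was higher by 0.70, so *Tet2* stood lower than the median gene, at -0.16 relative to it.

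**Figure D1:**
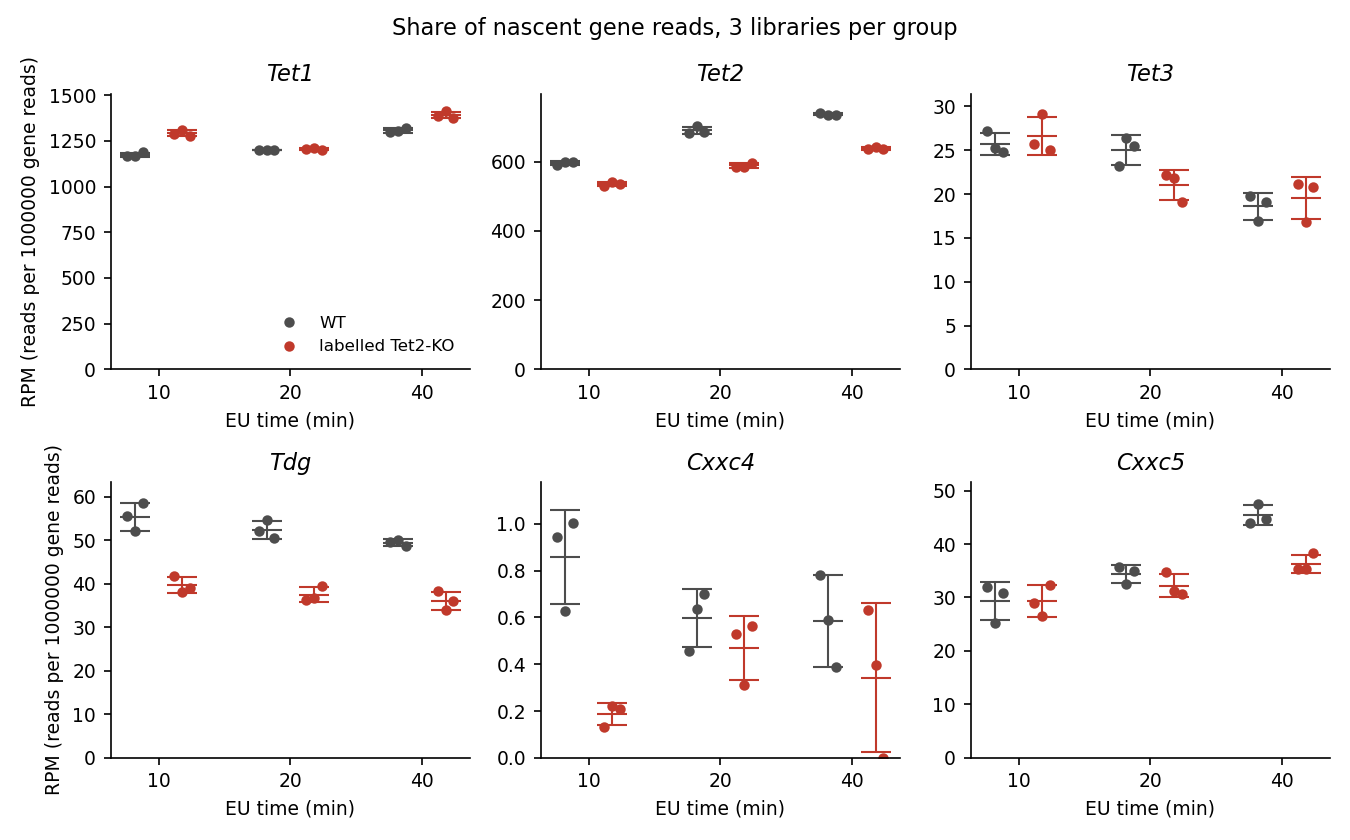
Share of nascent gene reads of the 6 members (RPM, axes from 0) by EU time in min, with a point per library and the mean and SD of the 3 libraries of each group, WT in grey and labelled *Tet2*-KO in red. *Tet2* and *Tdg* are lower in red at all 3 EU times, *Tet1* is higher at 10 and 40 min, and *Tet3* overlaps except at 20 min.

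*Tet1*, which encodes the TET enzyme with its own CXXC finger that is most used in mES cells, had the highest level of the family. Its share in WT was 1174 ± 10.6 RPM (SD, n = 3), 1201 ± 0.965 and 1307 ± 12.9 in order of EU time, and 1290 ± 16.3, 1205 ± 7.73 and 1391 ± 18.8 in *Tet2*-KO-labelled libraries. The groups did not overlap at 10 and 40 min and overlapped at 20 min. The averaged share was higher by 0.08 (log2, SE 0.01, 1.05-fold, adjusted p = 2.59e-08), with 0.14 at 10 min, 0.09 at 40 min and 0.01 at 20 min, where it did not pass the test (adjusted p = 0.833). Per 1000 ERCC reads *Tet1* stood at 54.9 ± 4.34, 177 ± 10.5 and 323 ± 11.8 in WT and at 123 ± 5.62, 248 ± 15.7 and 552 ± 40.3 in *Tet2*-KO-labelled libraries. On this scale the averaged difference was 0.81 (log2, SE 0.05), or 0.12 above the median gene.

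*Tet3*, the enzyme of the oocyte and zygote, was read at low levels, with 345 to 606 counts in WT and 340 to 579 in *Tet2*-KO-labelled libraries. Its share was 25.7 ± 1.27 (SD, n = 3), 25.01 ± 1.68 and 18.6 ± 1.52 RPM at 10, 20 and 40 min in WT and 26.6 ± 2.14, 21.03 ± 1.67 and 19.6 ± 2.41 in *Tet2*-KO-labelled libraries. The averaged difference in share was -0.04 (log2, SE 0.05, adjusted p = 0.499). The groups overlapped at 10 and 40 min, and at 20 min *Tet3* fell by 0.25 with no overlap (adjusted p = 0.0292). Leaving out WT replicate 2 or 3 or *Tet2*-KO replicate 3 of that time took the 20 min difference past the threshold, to an adjusted p of at most 0.168, and so did TMM scaling (-0.21, adjusted p = 0.0655) and DESeq2 with its own size factors (-0.22, adjusted p = 0.0564). Per ERCC read *Tet3* was higher by 0.69 on average (log2, SE 0.07, adjusted p = 1.35e-20), beside 0.70 for the median gene, and by 0.23 at 20 min, which did not pass the test (adjusted p = 0.0879).

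*Tdg*, whose product removes oxidised cytosines from DNA, showed the largest difference in share among the members other than *Cxxc4*. In WT its counts were 1238, 1160 and 1282 at 10 min, 1024, 1035 and 1085 at 20 min, and 1143, 1025 and 1003 at 40 min. In *Tet2*-KO-labelled libraries they were 938, 687 and 745, then 684, 710 and 770, then 725, 688 and 646. As a share this was 55.4 ± 3.19 (SD, n = 3), 52.4 ± 2.09 and 49.5 ± 0.726 RPM in WT and 39.6 ± 1.86, 37.5 ± 1.80 and 36.1 ± 2.11 in *Tet2*-KO-labelled libraries, and the genotypes did not overlap at any EU time. The averaged share fell by 0.47 on the log2 scale (SE 0.03, 0.72-fold, adjusted p = 9.53e-14), and the log2 difference at the single times was -0.48, -0.48 and -0.46. Of all genes tested, 15.7% had a lower averaged difference in share than *Tdg*. Per 1000 ERCC reads *Tdg* was at 2.58 ± 0.0731, 7.73 ± 0.777 and 12.2 ± 0.674 in WT and at 3.79 ± 0.321, 7.74 ± 0.725 and 14.4 ± 1.98 in *Tet2*-KO-labelled libraries. The averaged difference on this scale was 0.26 (log2, SE 0.06, adjusted p = 2.36e-05), at -0.43 relative to the median gene. The groups were apart at 10 min and overlapped at 20 and 40 min. The call at 40 min (0.23, adjusted p = 0.0387) was lost when WT replicate 1 or 3 or *Tet2*-KO replicate 1 or 3 of that time was left out, with an adjusted p of up to 0.324. It was also lost with the median ratio of ERCC transcripts (0.21, adjusted p = 0.0796) and with no filter on low counts (0.23, adjusted p = 0.0651).

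*Cxxc4*, which encodes the CXXC finger split off from *Tet2*, was close to the limit of detection. In WT it had 21, 14 and 22 reads at 10 min, 9, 12 and 15 at 20 min, and 18, 12 and 8 at 40 min. In *Tet2*-KO-labelled libraries it had 3, 4 and 4 reads at 10 min, 10, 6 and 11 at 20 min, and 12, 8 and 0 at 40 min, where 0 reads allow up to 0.167 RPM (3 reads of the library's total). The libraries were apart at 10 min and overlapped at 20 and 40 min. Summed over the 9 libraries of a genotype there were 131 reads in WT and 58 in *Tet2*-KO-labelled libraries, a ratio of shares of 0.484 with an exact 95% Clopper-Pearson interval of 0.349 to 0.664, which covers counting error only. The ratio was 0.215 (0.102 to 0.415) at 10 min, 0.781 (0.456 to 1.32) at 20 min and 0.591 (0.326 to 1.04) at 40 min. The averaged share fell by 1.09 on the log2 scale (SE 0.34, adjusted p = 0.00683), and 4.17% of the genes tested had a lower value. Per ERCC read the averaged difference was -0.36 (SE 0.34) and did not pass the test (adjusted p = 0.317).

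*Cxxc5*, the other TET2-binding CXXC gene, had 563 to 1015 reads in WT and 479 to 713 in *Tet2*-KO-labelled libraries. An annotated transcript on the same strand, *AC141471.2*, covers 29045 bases of *Cxxc5* and has no counts of its own in the deposited data. Reads from it cannot be told apart from those of *Cxxc5*, here and in all values of *Cxxc5* below. Its share was 29.4 ± 3.56 (SD, n = 3), 34.4 ± 1.63 and 45.4 ± 1.90 RPM in WT and 29.3 ± 2.94, 32.2 ± 2.14 and 36.3 ± 1.77 in *Tet2*-KO-labelled libraries. The genotypes overlapped at 10 and 20 min and were apart at 40 min, where *Cxxc5* fell by 0.32 on the log2 scale (SE 0.08, adjusted p = 0.000890). The averaged share fell by 0.14 (SE 0.05, adjusted p = 0.00925), a call that TMM scaling did not keep (log2 difference -0.10, adjusted p = 0.0572). Per 1000 ERCC reads *Cxxc5* was at 1.36 ± 0.107, 5.06 ± 0.143 and 11.2 ± 0.928 in WT and at 2.81 ± 0.442, 6.62 ± 0.126 and 14.4 ± 1.30 in *Tet2*-KO-labelled libraries, with an averaged log2 difference of 0.60 (SE 0.06).

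Counted together, 5 of the 6 members were called higher per ERCC read on average over the EU times and none lower, where 80.5% of all genes tested were called higher and 4.15% lower. On the share scale 1 member, *Tet1*, was called higher and 4 were called lower (*Tet2*, *Tdg*, *Cxxc4* and *Cxxc5*), against 24.6% and 32% of all genes. The median log2 difference over all genes was 0.70 per ERCC read and -0.04 as a share. Without overlap at any of the 3 EU times, *Tet1*, *Tet2* and *Cxxc5* were higher per ERCC read (51.6% of all genes), and *Tet2* and *Tdg* were lower as a share (13.9% of all genes). At single EU times 1, 0 and 1 members were called higher in share at 10, 20 and 40 min (17.9%, 17.6% and 18.9% of all genes), and 3, 3 and 3 were called lower (27.1%, 20.7% and 19.6%). Per ERCC read 5, 3 and 5 were called higher at the same times (79%, 53.7% and 68.2%) and none lower (2.1%, 4.86% and 2.84%).

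**Figure D2:**
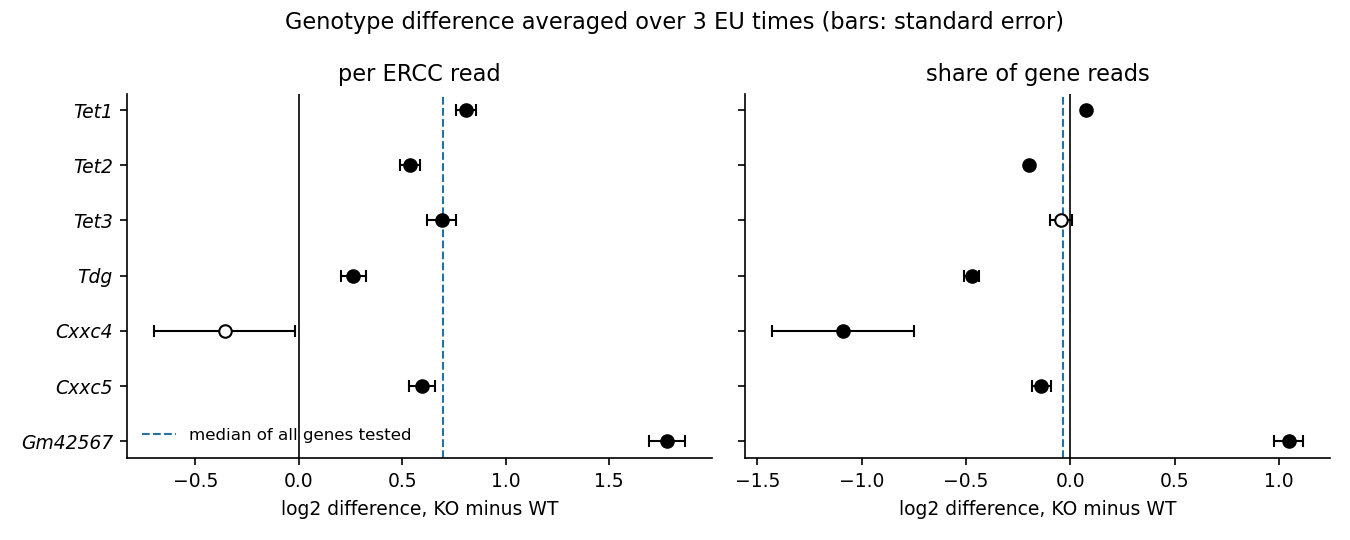
Log2 difference, *Tet2*-KO-labelled libraries minus WT, averaged over the 3 EU times, per ERCC read (left) and as share of gene reads (right), for the 6 members and *Gm42567*, the antisense gene that overlaps the 5′ end of *Tet2*. Bars are standard errors, filled points passed the test (adjusted p under 0.05), and the dashed line is the median of all genes tested, 0.70 on the left and -0.04 on the right. *Tet2*, *Tdg*, *Cxxc4* and *Cxxc5* lie left of it on both, *Tet3* lies close to it, and *Tet1* and *Gm42567* lie right of it.

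Ratios of reads between members of the same library need no scaling. *Tet1* gave 1.71 to 1.98 reads for each read of *Tet2* in WT (mean 1.83 ± 0.111 SD, n = 9) and 2.01 to 2.43 in *Tet2*-KO-labelled libraries (mean 2.21 ± 0.162, n = 9), and the genotypes did not overlap over all 18 libraries. The ratio of *Tet2* to *Tdg* was 10.8 ± 0.653 (SD, n = 3), 13.2 ± 0.368 and 14.9 ± 0.211 at 10, 20 and 40 min in WT and 13.5 ± 0.748, 15.7 ± 0.573 and 17.7 ± 1.13 in *Tet2*-KO-labelled libraries, with no overlap within an EU time. *Tet1* gave 20.3 to 27.1 reads for each read of *Tdg* in WT and 30.3 to 41.5 in *Tet2*-KO-labelled libraries. Over all 18 libraries, ratios with *Tet3* and *Cxxc5* overlapped between the genotypes. *Tet2* to *Tet3* ran from 21.7 to 43.6 in WT and from 18.6 to 38.3 in *Tet2*-KO-labelled libraries, and *Tet2* to *Cxxc5* from 15.5 to 23.7 and from 16.5 to 20.3.

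**Figure D3:**
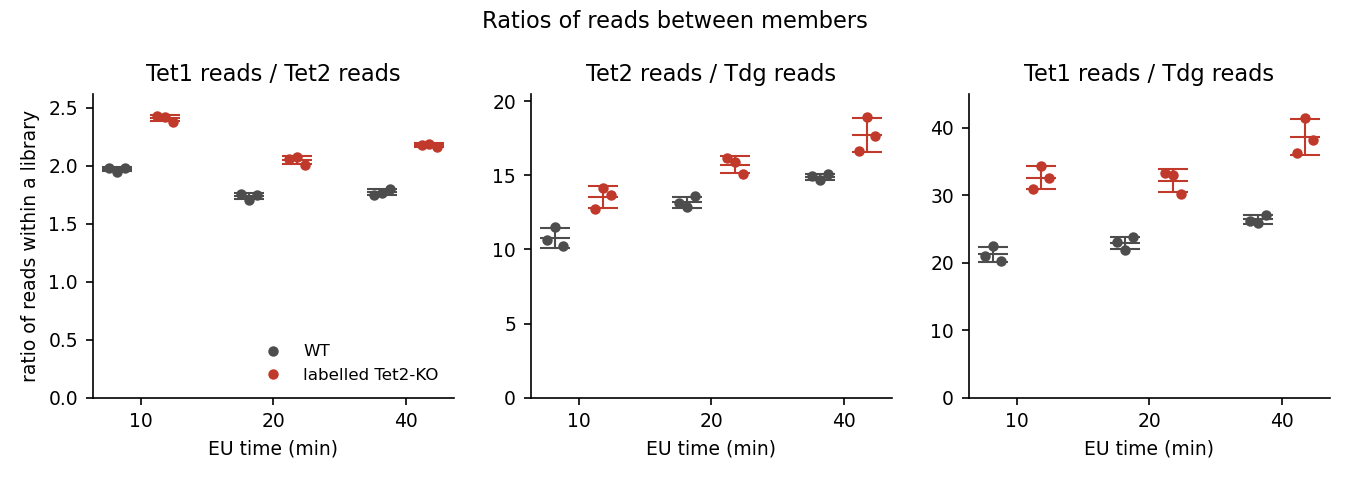
Ratio of reads within a library for *Tet1* to *Tet2*, *Tet2* to *Tdg* and *Tet1* to *Tdg* by EU time in min, with a point per library and the mean and SD of 3 libraries per group, WT in grey and labelled *Tet2*-KO in red. In all 3 panels the red libraries lie above the grey ones of the same EU time, and for *Tet1* to *Tet2* the lowest red value is 2.01 and the highest grey value 1.98.

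With longer EU labelling the members changed their share in different directions. From 10 to 40 min the share of *Tet2* rose by 0.31 (log2, SE 0.02) in WT and by 0.26 (SE 0.02) in *Tet2*-KO-labelled libraries, that of *Tet1* by 0.15 and 0.11, and that of *Cxxc5* by 0.63 and 0.31. *Tet3* fell by 0.47 (SE 0.09) in WT and by 0.44 (SE 0.09) in *Tet2*-KO-labelled libraries. *Tdg* fell by 0.16 in WT (adjusted p = 0.0207), a call lost without WT replicate 3 of 10 min or of 40 min (adjusted p up to 0.113), by TMM scaling (-0.06, adjusted p = 0.416) and by DESeq2 with its own size factors (-0.06, adjusted p = 0.420). In *Tet2*-KO-labelled libraries the *Tdg* value was -0.14 and did not pass the test (adjusted p = 0.0811), nor did *Cxxc4* in either genotype. Thus 3 members were called higher and 2 lower in WT (16.1% and 29.5% of all genes), and 3 higher and 1 lower in *Tet2*-KO-labelled libraries (16.5% and 20%). Per ERCC read all 6 members rose in both genotypes, as did 96.7% of all genes in WT (0.01% fell) and 94.7% in *Tet2*-KO-labelled libraries (0.00502% fell).

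Whether the genotype difference itself changed between 10 and 40 min was tested as an interaction. Per ERCC read it was smaller at 40 min for 3 members, *Tet1* (log2 change -0.39, SE 0.12, adjusted p = 0.0103), *Tet2* (-0.40, SE 0.12, adjusted p = 0.0107) and *Cxxc5* (-0.68, SE 0.15, adjusted p = 0.000636). Over all genes the median change was -0.29, and 19.3% were called lower and 0.552% higher. As a share no member passed the test (5.89% of all genes higher and 3.36% lower), with *Cxxc5* at -0.32 (adjusted p = 0.0643), *Tet2* at -0.05 and *Tet1* at -0.05 (edgeR's quasi-likelihood test). This count depended on the scaling. With TMM factors 3 members passed, *Tet1* at -0.10 (adjusted p = 0.00538), *Tet2* at -0.11 (adjusted p = 0.0123) and *Cxxc5* at -0.38 (adjusted p = 0.0214), and with DESeq2's own size factors and test the same 3. Without adjustment *Cxxc5* alone of the members was under 0.05 as a share. Leaving out WT replicate 1 or 3 or *Tet2*-KO replicate 2 of 10 min brought *Cxxc5* under the threshold, to an adjusted p as low as 0.0287.

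The slope of the level per 1000 ERCC reads on EU time was fitted over the 9 libraries of each genotype and is given as a description. The study took its rate of transcription from a line on EU time too, but fitted attomoles converted from CPM. For *Tet1* it was 8.70 per min (SE 0.514) in WT and 14.4 (SE 0.671) in *Tet2*-KO-labelled libraries, a ratio of 1.66. For *Tet2* it was 4.98 (SE 0.352) and 6.73 (SE 0.299), a ratio of 1.35. *Tdg* had slopes of 0.308 (SE 0.0309) and 0.350 (SE 0.0311), a ratio of 1.14, and *Cxxc5* of 0.326 (SE 0.0147) and 0.387 (SE 0.0197), a ratio of 1.19. *Tet3* had 0.103 (SE 0.0203) and 0.176 (SE 0.0221), a ratio of 1.71. The ratio of *Cxxc4*, 1.101, rests on few reads, and without single libraries of 40 min it ran from 0.471 to 1.84. Reads on all protein-coding genes gave a ratio of 1.56. *Tdg*, *Cxxc5* and *Tet2* lay below that total and *Tet1* above it. The ratio of *Tet3* was higher than the total with all libraries in. Its side is not settled, because leaving out single libraries moved the *Tet3* ratio to either side of 1.56. With 10 and 20 min alone the ratios were 1.03 for *Tet1*, 0.951 for *Tet2*, 0.767 for *Tdg* and 0.722 for *Tet3*, so the choice of EU times moved each of them. The total was not fitted for 10 and 20 min alone, so these ratios cannot be set against 1.56. Over all genes the median log2 genotype difference per ERCC read was 0.96 at 10 min and 0.45 at 20 min.

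**Figure D4:**
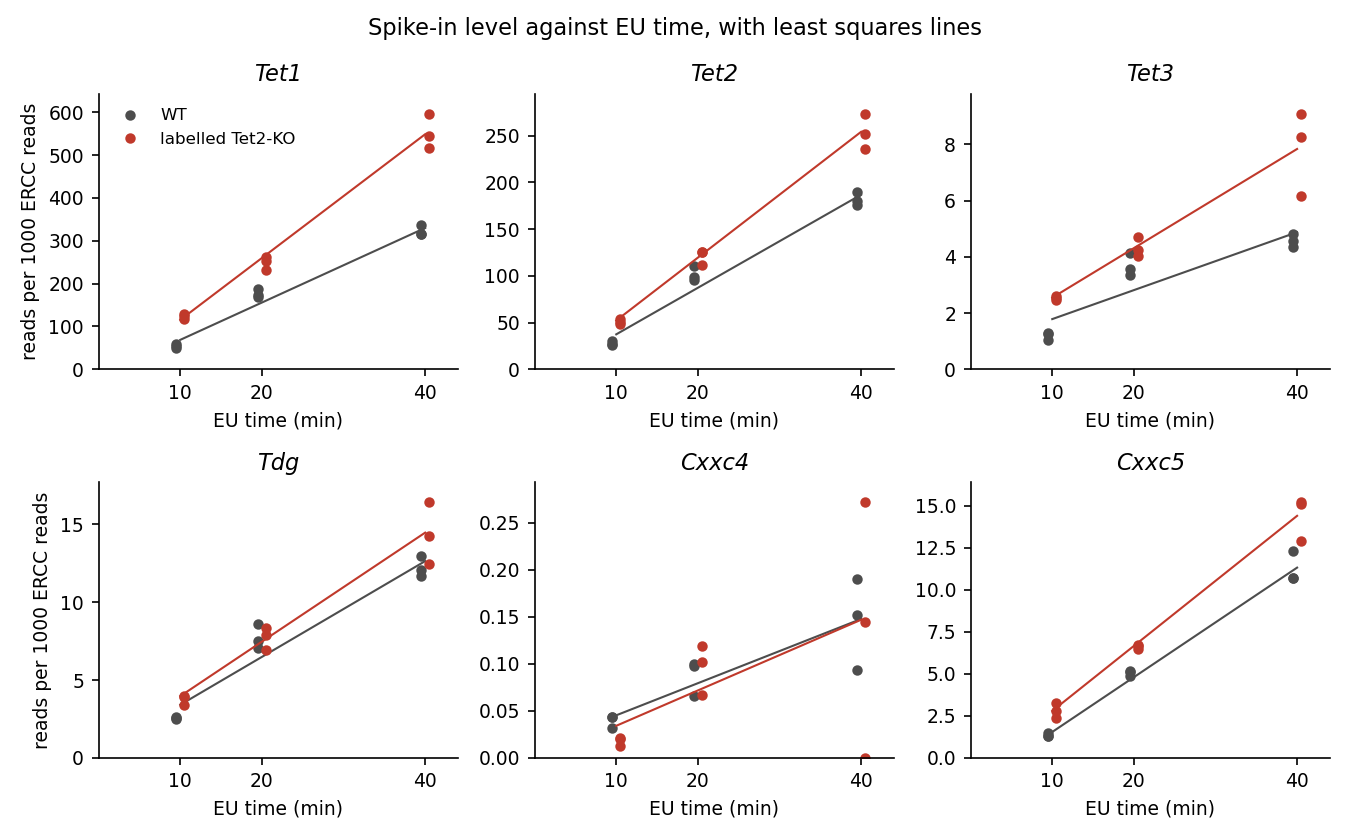
Reads per 1000 ERCC reads (axis from 0) against EU time in min for each member, with a point per library, shifted slightly sideways by genotype, and the least squares line of each genotype, WT in grey and labelled *Tet2*-KO in red. The ratio of slopes is 1.71 for *Tet3*, 1.66 for *Tet1* and 1.14 for *Tdg*, while *Cxxc4* scatters from 0 to 0.272 at 40 min.

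Levels of different genes were compared per kb. Per kb of gene span, the length that fits counts on whole gene bodies, the order was *Tet1*, *Tet2*, *Tdg*, *Cxxc5*, *Tet3* and *Cxxc4* in all 6 groups, and neighbours in this order never overlapped. In WT at 40 min the levels were 3.09 ± 0.113 reads per 1000 ERCC reads per kb of span (SD, n = 3) for *Tet1*, 2.24 ± 0.0909 for *Tet2*, 0.583 ± 0.0321 for *Tdg*, 0.348 ± 0.0287 for *Cxxc5*, 0.0474 ± 0.00235 for *Tet3* and 0.00564 ± 0.00190 for *Cxxc4*. Per kb of exon the order of *Tdg* and *Cxxc5* was turned in every group but WT at 10 min, where the libraries of the pair overlapped. *Tet1* stood 1.38 times above *Tet2* per kb of span in WT at 40 min and 1.70 times above it in *Tet2*-KO-labelled libraries at the same time. *Tet2* stood 3.83 and 4.54 times above *Tdg*.

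Around *Tet2* itself, the annotated antisense gene *Gm42567* (chromosome 3, 133545097 to 133585053, plus strand) starts 456 bases beyond the promoter window shown above and shares 43 bases with the GENCODE model of *Tet2*. In WT it had 132, 145 and 128 reads at 10 min, 186, 151 and 155 at 20 min, and 147, 110 and 124 at 40 min. In *Tet2*-KO-labelled libraries it had 287, 271 and 276, then 245, 299 and 263, then 268, 262 and 229. All 9 *Tet2*-KO-labelled libraries lay above all 9 WT libraries in share, at 12.8 to 15.5 against 5.38 to 9.47 RPM. The averaged share was higher by 1.05 (log2, SE 0.07, 2.06-fold, adjusted p = 1.08e-14), and 95.8% of the genes tested had a lower value. Per ERCC read the difference was 1.78 (SE 0.09). Its log2 difference in share was 1.21, 0.77 and 1.16 at the 3 EU times, while that of *Tet2* on the opposite strand was -0.15, -0.23 and -0.21. How the authors treated strand is not given in the sources used here, and the count of nested genes above is what shows that reads were kept to their own strand.

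Of the nearest protein-coding genes, *Ppa2*, which encodes the mitochondrial inorganic pyrophosphatase and lies 85443 bases past the 3′ end of *Tet2*, rose in share by 0.17 (log2, SE 0.03, adjusted p = 6.85e-07), with no overlap at any EU time. *Arhgef38* had 1 to 17 reads and did not pass the test (0.33, SE 0.38, adjusted p = 0.479). On the other side, beyond *Cxxc4*, the neurokinin receptor gene *Tacr3* fell by 0.75 (SE 0.13, adjusted p = 9.16e-06), from 62 to 121 reads in WT to 30 to 58 in *Tet2*-KO-labelled libraries. *Gm26691*, antisense to *Cxxc4*, had 18 to 42 and 23 to 41 reads, and its averaged share rose by 0.44 (SE 0.16, adjusted p = 0.0182). This call was lost without *Tet2*-KO replicate 3 of 10 min (adjusted p = 0.0541) and with no filter on low counts (adjusted p = 0.0553). The difference was 0.34 at 10 min, 0.0068 at 20 min and 0.98 at 40 min. Only that at 40 min passed the test (adjusted p = 0.00617). *Gm29417*, antisense to *Cxxc5*, fell by 1.75 (SE 0.47, adjusted p = 0.00184), from 4 to 35 reads to 0 to 7. *Glt8d2*, which shares 367 bases with the end of *Tdg* on the other strand, did not pass the test (-0.06, adjusted p = 0.881). The genes of *Tet1* and *Tet3* that are nested on the same strand had 0 reads.

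**Figure D5:**
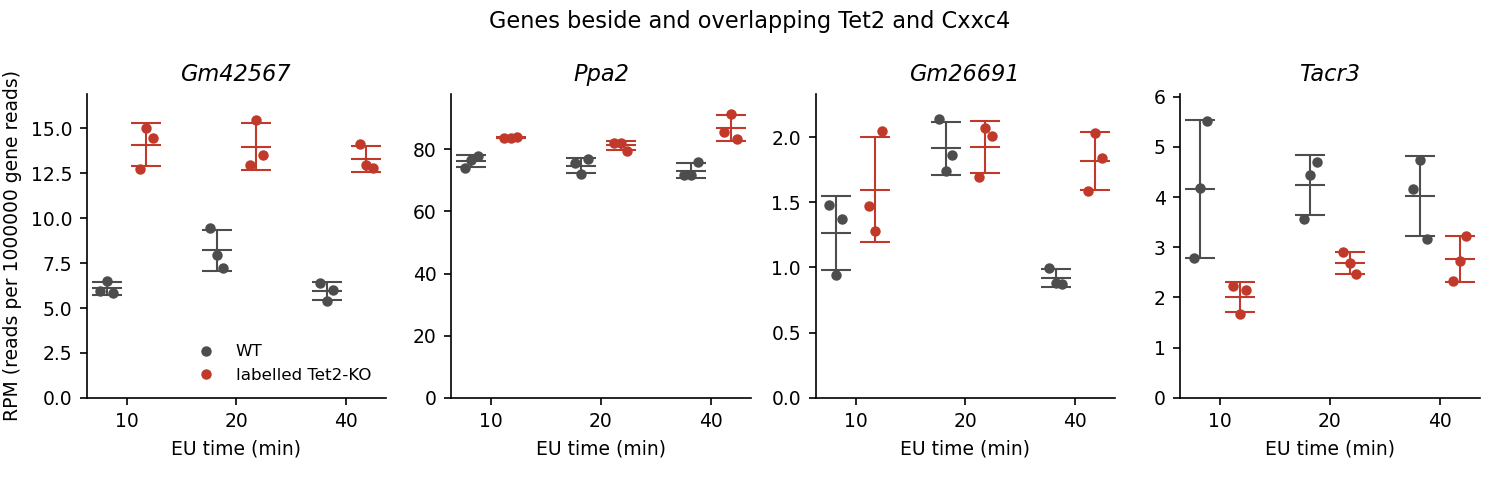
Share (RPM, axes from 0) by EU time in min of *Gm42567*, antisense at the 5′ end of *Tet2*, of *Ppa2*, past its 3′ end, of *Gm26691*, antisense to *Cxxc4*, and of *Tacr3*, beyond *Cxxc4*, with a point per library and the mean and SD of 3 libraries per group, WT in grey and labelled *Tet2*-KO in red. The red libraries of *Gm42567* lie at 12.8 to 15.5 and the grey ones at 5.38 to 9.47, those of *Ppa2* are apart by less, and those of *Tacr3* lie lower in red at 10 and 20 min and overlap slightly at 40 min.

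The genes that act with TET and TDG proteins were looked up in lists by role. Of 20 genes for base excision repair and deaminases, 3 rose and 5 fell in share and 12 did not pass the test (median log2 difference -0.04, beside -0.04 over all genes). Of all genes tested, 24.6% rose and 32% fell in share, the background for this and the lists that follow. The DNA glycosylases *Neil2* (log2 -1.17, SE 0.09) and *Mbd4* (-0.69, SE 0.04) and the gap-filling polymerase *Polb* (-0.39, SE 0.03) were lowest. *Neil2* had 125 to 231 reads in WT and 53 to 71 in *Tet2*-KO-labelled libraries. *Ung*, the uracil glycosylase, was higher by 0.55 (SE 0.04), the deaminase *Apobec3* by 0.44 (SE 0.04) and the strand break sensor *Parp1* by 0.13 (SE 0.02). Per ERCC read 17 of the 20 rose and 1, *Neil2*, fell, where 80.5% of all genes rose and 4.15% fell.

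Of 18 genes for the supply of 2-oxoglutarate and its competitors, 7 rose, 7 fell and 4 did not pass the test (median 0.01). *Sdhc* (-0.95, SE 0.05) and *Sdhb* (-0.33, SE 0.04), subunits of succinate dehydrogenase, and *D2hgdh* (-0.90, SE 0.07), which clears D-2-hydroxyglutarate, fell the most. *Psat1* of serine synthesis was higher by 0.27 (SE 0.03) and *Idh3g* of isocitrate dehydrogenase by 0.17 (SE 0.05). Of 20 genes for proteins that bind or regulate TET proteins, 19 were tested, 8 rose and 7 fell (median 0.03). *Rbm14* was not tested, with at most 1 read in a library. Partial overlap with another gene on its strand was not looked up, so the count does not show whether it is transcribed. *Dppa3* (-0.84, SE 0.17, 42 to 89 reads in WT and 14 to 48 in *Tet2*-KO-labelled libraries), *Lin28a* (-0.71, SE 0.04) and the ubiquitin ligase scaffold *Cul4a* (-0.33, SE 0.03) fell the most. The stem cell factors *Sall4* (0.33, SE 0.03) and *Prdm14* (0.26, SE 0.04) and the scaffold *Cul4b* (0.26, SE 0.02) rose the most.

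Of 8 other CXXC zinc finger genes, 3 rose, 1 fell and 4 did not pass the test (median -0.01). *Kdm2b* (0.33, SE 0.02) and *Kdm2a* (0.09, SE 0.02), histone demethylases that bind CpG islands, and the methyltransferase *Kmt2b* (0.30, SE 0.02) rose, and *Fbxl19* (-0.16, SE 0.04) fell. Of 9 genes for readers of 5-hydroxymethylcytosine, 2 rose, 3 fell and 4 did not pass the test (median -0.03). *Uhrf2* (0.28, SE 0.02) was among those higher, and *Thyn1* (-0.94, SE 0.06), *Hmces* (-0.24, SE 0.03) and *Neil3* (-0.13, SE 0.05) were lower. All named differences passed the test over all genes, and the direction in each list was mixed. By TMM scaling *Neil3* no longer passed (-0.09, adjusted p = 0.0914).

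Protein-coding genes with the pattern most like each member were found among 15157 by the root mean square difference of log2 share over the 18 libraries, each gene centred on its own mean. For *Tet2*, which itself varied by 0.153 on this measure, these were *Smc1a* (0.0469) and *Ttc3* (0.0473). For *Tet1*, with 0.0860, they were *Zfp992* (0.0350) and *Slc20a2* (0.0389), and for *Tdg*, with 0.248, *Tfcp2l1* (0.0630) and *Ipo11* (0.0663). *Tet3* was followed by *Ggnbp1* (0.104) and *Adgrl2* (0.108), *Cxxc5* by *Msantd4* (0.0994) and *Pcnx3* (0.105), and *Cxxc4* by *Moxd1* (0.222) and *Amot* (0.240). *Tfcp2l1*, a transcription factor of naive stem cells, differed by -0.47 in share between the genotypes, as did *Tdg*, and the cohesin subunit gene *Smc1a* by -0.25. These genes were picked for the likeness over the same libraries, so their differences are a description.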

How the data were processed

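Nascent RNA was sequenced in 18 libraries of WT and *Tet2*-KO mES cells, 3 dishes for each genotype and EU time, grouped by the labels. The authors trimmed reads with Trimmomatic 0.39, aligned them with HISAT2 2.2.1 to mm10 (GENCODE M19) with ERCC sequences, used HTSeq 0.12.4 to count them, and deposited raw counts per gene without normalization. The feature type and strand setting of HTSeq are not given in the sources used here. They then converted CPM to attomoles by the ERCC reads and fitted a line on EU time, steps whose values were not used here.

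From the deposited counts, 5 summary lines that name no gene (reads without a feature were 13.9% to 17.9% of the counted total, ambiguous reads 2.45% to 2.64%) were left out, and 54409 of 54446 identifiers were found in GENCODE M21. Genes were kept by edgeR's filterByExpr with a minimum count of 10, which left 19910, the 6 members among them. The test was edgeR's (4.0.16, R 4.3.3) quasi-likelihood test on 1 fit of 6 group means over 18 libraries, with ERCC reads or gene reads as library size and Benjamini-Hochberg adjustment at 0.05. Averaged differences are means of the 3 contrasts by EU time, and the standard error is that of the log2 difference. Members and lists were chosen with earlier results of these data known. Named genes were the members, in each list up to 3 highest and 3 lowest among those past the threshold in averaged share, the 2 nearest protein-coding genes on each side of *Tet2*, genes that overlap a member, and the 2 nearest in pattern (log2 of RPM plus 0.5). Alternatives were TMM, protein-coding reads, the median ratio of ERCC transcripts (those never under 100 reads), DESeq2 1.42.0, other filters on low counts, a replicate block, other EU times for slopes and each library left out. On simulated data for the 19910 genes, the procedure was tested with 200 genes changed by known folds, and the outcome is not reported here. The simulated noise was drawn gene by gene, so it does not cover an error of the ERCC reads shared by all genes of a library. Reads have no molecular identifiers, so intervals and floors cover counting error only. Replicate pairs differed by more than counting noise (mean chi-square per gene 1.64 to 5.34). The values of some genes in the lists are not reported here, although the genes are counted in them.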

Additional observations from a re-analysis of the deposited data

Results flagged for a closer look

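The genotype difference per ERCC read changed with EU time for 3 members (interaction term in edgeR's quasi-likelihood test, adjusted over 19910 genes). The difference was larger at 10 than at 40 min for *Tet1* (log2 1.17 and 0.77, change -0.39, adjusted p = 0.0103), *Tet2* (0.88 and 0.48, change -0.40, adjusted p = 0.0107) and *Cxxc5* (1.04 and 0.36, change -0.68, adjusted p = 0.000636). The median change over all genes was -0.29 on the same scale, and 19.3% of all genes were called lower and 0.552% higher. As a share of gene reads, scaled by gene read totals, no member passed the test. Groups of 3 libraries were not searched for single libraries that stand apart.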

How the results depend on the processing

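The scale decides the direction for most members, since ERCC reads and gene reads answer different questions. With TMM factors in place of ERCC reads, the averaged log2 difference was -0.16 for *Tet2*, -0.0041 for *Tet3*, -0.43 for *Tdg*, -0.10 for *Cxxc5* and -1.05 for *Cxxc4* (now called), with 1 member called higher and 3 lower, and 5690 genes higher and 5546 lower. With gene read totals these were -0.20, -0.044, -0.47, -0.14 and -1.09, with 1 member higher and 4 lower, and 4902 and 6375 genes. At single times TMM gave -0.085, -0.19 and -0.19 for *Tet2*, -0.41, -0.45 and -0.44 for *Tdg*, and at 20 min -0.21 for *Tet3*, -0.31 for *Cxxc4* and -0.059 for *Cxxc5*, which stood at -0.31 at 40 min. Gene read totals gave -0.15, -0.23 and -0.21 for *Tet2*, -0.48, -0.48 and -0.46 for *Tdg*, -0.00096, -0.096 and -0.32 for *Cxxc5*, and at 20 min -0.25 for *Tet3* and -0.35 for *Cxxc4*. From 10 to 40 min TMM gave -0.37 and -0.40 for *Tet3* in WT and *Tet2*-KO, -0.061 and -0.093 for *Tdg* and -0.44 for *Cxxc4* in WT, and gene read totals -0.47, -0.44, -0.16, -0.14 and -0.54. With gene read totals the interaction was 0.024 for *Tet3* and 0.025 for *Tdg*, and 0 members passed. The cause was not tested beyond the change of scale.

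The median ratio of ERCC transcripts gave -0.043 for *Tdg* at 20 min per ERCC read. Requiring 10 counts in every library left 460 of 15282 genes called lower per ERCC read on average, beside 827 of 19910 with the main filter. On the share scale TMM gave -0.10 for *Cxxc5* (adjusted p = 0.0572), 0.069 for *Cxxc5* at 10 min, and interactions of -0.033 for *Tet3* and -0.032 for *Tdg*, and DESeq2's size factors gave 0.069, -0.040 and -0.039. The interaction passed for 3 members with either and for 1 without a filter. As a share of protein-coding reads *Tet1* at 20 min was at -0.0052.

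Ratios of slopes with 10 and 20 min only were 1.03 (*Tet1*), 0.951 (*Tet2*), 0.722 (*Tet3*), 0.767 (*Tdg*) and 1.03 (*Cxxc5*). With 20 and 40 min only they were 2.08, 1.65, 3.91 and 1.48 for the first 4, and 0.753 for *Cxxc4*, and through the origin 0.962 for *Cxxc4* and 1.31 for *Cxxc5*. Per kb of span in WT at 40 min the levels were 3.09, 2.24, 0.0474, 0.583, 0.00564 and 0.348 for *Tet1*, *Tet2*, *Tet3*, *Tdg*, *Cxxc4* and *Cxxc5*.

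Leaving out each library in turn kept the side of the threshold of every averaged member difference on both scales. Differences per ERCC read that crossed 0 were *Tdg* at 20 min (-0.059 to 0.083) and *Cxxc4* at 20 min (-0.054 to 0.33) and 40 min (-0.90 to 0.49). As shares, *Tet3* (-0.018 to 0.088) and *Cxxc5* (-0.098 to 0.064) at 10 min, the interactions of *Tet3* (-0.040 to 0.13) and *Tdg* (-0.019 to 0.067), and *Glt8d2* (-0.19 to 0.14) crossed 0. The number of members with an interaction as a share was 0 to 1, and the slope ratio of *Cxxc4* ran from 0.471 to 1.84.

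Same-numbered libraries of different groups did not deviate together (45 pairs, correlation -0.07 to 0.06, none over 0.1), so the numbers do not pair them. A fit with the replicate number as a block changed no call, with *Tet2* at -0.20 and *Tdg* at -0.47 in averaged share. Depth limits *Cxxc4*, which had at most 22 reads in a library.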
